A study of Rattus norvegicus with 11 samples.

Results

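The genes described here encode the folding machinery of the endoplasmic reticulum (ER) and the unfolded protein response, measured in the liver of rats given mequindox, a veterinary antibacterial of the quinoxaline di-oxide class. The set was taken by name as 39 genes, and each gene was represented by its brightest probe set among those with that gene as their only symbol in the array's annotation. Of the 39, 38 had such a probe set, out of 14217 genes in all. Ern1, which encodes the sensor IRE1, had none and was not analysed here. The signal of Asns lay under the filter on dim probe sets, so 37 genes were tested among 10714.

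The arrays came from 8 Wistar rats given the high dose of mequindox (animal numbers 2, 3, 4, 5, 6, 8, 10 and 11) and 3 untreated control Wistar rats (numbers 1, 2 and 9), with liver RNA of each animal on 1 array. The labels gave an age of week 9 for all animals but high-dosed animal 8, at week 10. The sources used here do not give the dose in units of mass, the length of treatment or the time of day of sampling. Per the series' design text, both groups had been picked for arrays with knowledge of metabolite and clinical chemistry data. The number of arrays, with 3 controls, limits the precision.

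Secreted and membrane proteins enter the ER through the Sec61 translocon and are folded there by chaperones and by disulfide isomerases, and those that fail to fold are returned to the cytosol for degradation. When unfolded proteins accumulate, 3 sensors respond. ATF6 and, through IRE1, the transcription factor XBP1 drive genes of chaperones and of ER-associated degradation, whereas the kinase PERK phosphorylates eIF2alpha, slows translation and favours translation of ATF4, which drives genes of amino acid supply and the factor CHOP. Hepatocytes secrete most plasma proteins and hold these chaperones at high levels.

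In high-dosed livers 10 of the 16 ER chaperones and foldases were lower than in control livers, and none was higher. Over all genes tested, 2.60% were lower and 7.23% higher by the same rule, a limma adjusted p below 0.05 (9.84% in either direction, against 11 of the 37 members). The 10 were Creld2, Dnajb11, Calr, Hspa13, Hspa5, Sdf2l1, Hsp90b1, Dnajb9, Manf and Hyou1, and their levels were 0.634 to 0.862 times those of the controls. Only the first 5 of these kept their calls when any 1 animal was left out. With each array centred on its median, 3 of the 10 were called, among 139 lower genes in all. Among the 21 members tested outside the chaperone list none was lower and 1 was higher. This was Ppp1r15b, which encodes a regulatory subunit of the eIF2alpha phosphatase. No tested member of the ATF4 branch passed, although the 3 probe sets of Trib3 gave different calls. Asns, left out by the signal filter, was called higher in a setting without that filter. The median log2 fold change was -0.27 over the chaperone list, -0.046 over the 4 tested genes of the ATF4 branch and 0.017 over all genes tested. A negative value was found for 28 of the 37 members, against 46.1% of all genes. In 9 members every high-dosed animal lay below every control (3.37% of all genes) and in none did every high-dosed animal lie above (8.69%; 12.1% in either direction).

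**Figure D1:**
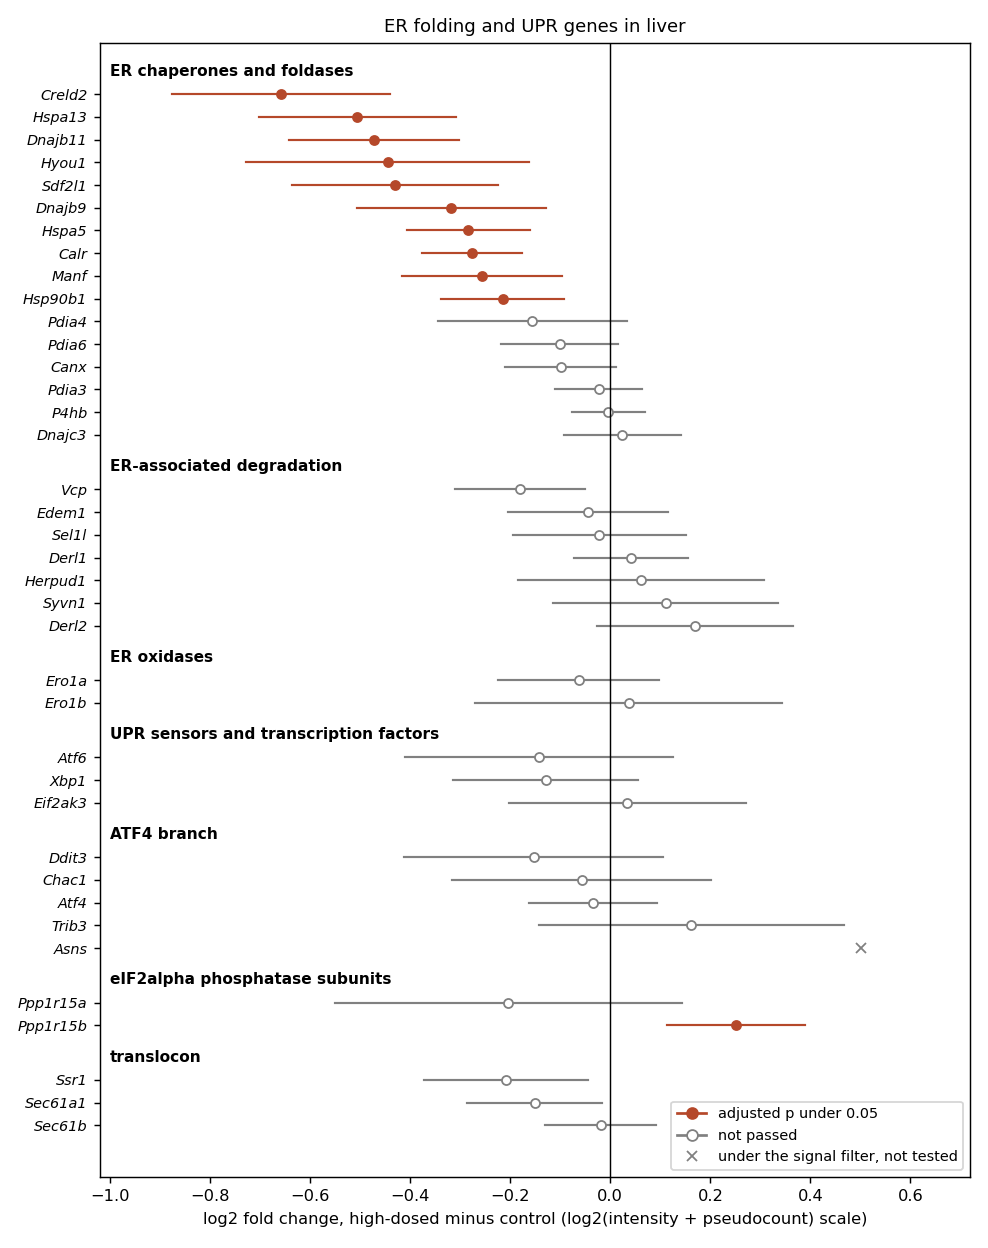
Log2 fold change of each member, high-dosed minus control, with its 95% confidence interval from limma, grouped by role (8 high-dosed and 3 control animals). Filled points passed the test: 10 chaperones lie left of 0 and Ppp1r15b lies right of it, at 0.25; the cross is Asns, which was not tested.

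Short DNA elements through which ATF6 and XBP1 are known to act were looked up in the RefSeq promoters of assembly GRCr8, from 250 bases before to 50 bases after each gene's annotated start. Of the 38 genes, 31 had an entry. The letters searched on both strands were CCAAT and CCACG with 9 free bases between them (the ER stress response element, ERSE), ATTGG and CCACG with 1 free base between them (ERSE-II), TGACGTGG (UPRE) and, for the ATF4 branch, TGATGNAAN (CARE, a site for C/EBP and ATF factors). The ERSE stood in 8 of the 31 members, against 21 of all 27457 genes with a promoter entry, or 0.0765%. These 8 were 25.8% of the members with an entry, and 8 of the 21 genes with the element were members. The members were taken by name as genes of this response. A raised share of these elements among them therefore describes the list and is no result of the dose. The matches are shown in the direction of the motif, with its fixed letters in capitals, to let the variable middle be compared.
Hspa5: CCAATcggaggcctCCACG
Hsp90b1, farther match: CCAATcgaaaggagCCACG
Hsp90b1, nearer match: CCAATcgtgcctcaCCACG
Creld2: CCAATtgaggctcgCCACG
Calr: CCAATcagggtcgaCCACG
Canx: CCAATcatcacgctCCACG
Dnajc3: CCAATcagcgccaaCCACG
Xbp1: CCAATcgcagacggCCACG
Ero1b: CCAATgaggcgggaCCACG
The match began 43 bases before the start of Hspa5, 65 before that of Xbp1, 145 before that of Creld2 and 232 before that of Calr. Those of Hsp90b1 began 176 and 72 bases before its start.

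The ERSE-II stood in 3 members with an entry, against 0.0619% of all genes. Dnajb11 had ATTGGcCCACG beginning 10 bases before its start, Herpud1 had ATTGGgCCACG beginning 124 bases before, and Hyou1 had both versions, beginning 188 and 88 bases before 1 of its annotated starts. The UPRE letters stood in Hyou1, where they overlapped the farther ERSE-II, and in Vcp (0.681% of all genes). The CARE letters stood in Chac1, Trib3, Herpud1 and Ppp1r15b, against 4.14% of all genes. A match is a description of these letters and not a bound site. The promoters of the 3 called chaperones with the smallest adjusted p are shown whole, with the ERSE or ERSE-II letters in capitals; in Creld2 and Calr the element lies on the opposite strand.
Creld2, chr7:121789134-121789433, plus strand: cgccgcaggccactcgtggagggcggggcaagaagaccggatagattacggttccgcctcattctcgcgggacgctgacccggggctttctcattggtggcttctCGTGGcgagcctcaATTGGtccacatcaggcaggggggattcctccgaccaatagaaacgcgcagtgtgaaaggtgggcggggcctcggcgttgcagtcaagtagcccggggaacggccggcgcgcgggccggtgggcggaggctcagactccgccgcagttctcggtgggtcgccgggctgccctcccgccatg
Dnajb11, chr11:91672751-91673050, minus strand: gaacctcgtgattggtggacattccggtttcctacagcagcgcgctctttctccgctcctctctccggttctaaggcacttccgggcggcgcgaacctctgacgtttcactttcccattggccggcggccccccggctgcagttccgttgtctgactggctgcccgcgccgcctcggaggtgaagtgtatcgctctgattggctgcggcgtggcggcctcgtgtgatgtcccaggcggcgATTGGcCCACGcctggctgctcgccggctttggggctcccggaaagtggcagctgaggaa
Calr, chr19:40213117-40213416, plus strand: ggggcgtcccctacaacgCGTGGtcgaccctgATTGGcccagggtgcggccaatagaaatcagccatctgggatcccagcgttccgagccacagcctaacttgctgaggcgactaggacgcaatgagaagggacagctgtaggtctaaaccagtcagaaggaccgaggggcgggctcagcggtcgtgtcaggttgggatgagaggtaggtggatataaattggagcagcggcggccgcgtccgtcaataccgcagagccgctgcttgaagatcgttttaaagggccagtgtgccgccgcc

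Of the 11 members with an ERSE or ERSE-II, 6 were lower in high-dosed livers (Hspa5, Hsp90b1, Creld2, Calr, Dnajb11 and Hyou1). Canx, Dnajc3, Xbp1, Ero1b and Herpud1 carried one and did not pass. Among the 14 other tested genes with either element 1 was lower and 1 was higher, with a median log2 fold change of 0.075. Of all tested genes with a promoter entry, 2.67% were lower and 7.32% higher. An ERSE or ERSE-II stood in 6 of the 9 lower members with an entry and in 5 of the 21 other tested members. A link between element and call was not tested. Sdf2l1, Dnajb9 and Hspa13 were lower with none of the 4 motifs in their windows, and Manf had no promoter entry.

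Hspa5 (BiP, also GRP78) is the main chaperone of the ER lumen and holds the 3 sensors inactive while it is bound to them. Its intensity ran from 8353 to 10512 with a median of 9008 in high-dosed animals, against 10913, 11549 and 10992 in control animals 1, 2 and 9. Every high-dosed animal lay below every control, and high-dosed animal 2 was the highest of its group. The log2 fold change was -0.28 ± 0.057 (SE, 8 high-dosed and 3 control animals, adjusted p = 0.00901), a level 0.821 times that of controls. Among the genes tested, 3.37% had all high-dosed animals below all controls.

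Of the 3 DnaJ cochaperones among the members, 2 passed as lower, where 2.60% of all genes did. Dnajb11 (ERdj3), which brings unfolded clients to BiP, had intensities from 1050 to 1390 (median 1216) in high-dosed animals and of 1614, 1779 and 1646 in controls, without overlap. Its log2 fold change was -0.47 ± 0.079 (adjusted p = 0.00384). Dnajb9 (ERdj4), which also restrains IRE1, ran from 1946 to 2375 (median 2040) in high-dosed animals, against 2379.2, 2379.1 and 3123 in controls. The groups did not overlap, but high-dosed animal 6 came close to the lower controls, and control 9 stood well above the other controls. The log2 fold change of Dnajb9 was -0.32 ± 0.088 (adjusted p = 0.0389). Leaving out control 9 or 1 gave -0.19 and -0.38 (adjusted p = 0.169 and 0.0655), and the call was also lost without any 1 of high-dosed animals 3, 4, 5, 10 and 11 (adjusted p from 0.0564 to 0.0651). Dnajc3 (p58IPK), a cochaperone of the same DnaJ family, had a log2 fold change of 0.024 with a 95% interval from -0.093 to 0.14.

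Hyou1 (GRP170), the nucleotide exchange factor that resets BiP, ran from 866 to 1347 (median 1084) in high-dosed animals, against 1289, 1400 and 1829 in controls. High-dosed animal 5 lay above control 1, so the groups overlapped. The log2 fold change of -0.44 ± 0.13 stood just inside the threshold (adjusted p = 0.0491). The call was lost when control 9 was left out (-0.30, adjusted p = 0.212), when control 1 or 2 was (-0.54 and -0.49, adjusted p = 0.0757 and 0.0883) and without high-dosed animal 2, 3, 4, 6, 10 or 11 (adjusted p from 0.0567 to 0.0739). Sdf2l1, which works with BiP and ERdj3 to keep clients soluble, ran from 1553 to 2296 (median 1865) in high-dosed animals, against 2422, 2703 and 2460 in controls. It did not overlap, with high-dosed animal 11 nearest to the controls, and its log2 fold change was -0.43 ± 0.096 (adjusted p = 0.0151). Without control 1 or 2 the call of Sdf2l1 was lost (adjusted p = 0.0564 and 0.0660).

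Creld2, an ER-resident protein with isomerase activity whose gene is a known ATF6 target, showed the largest change of the members tested. Its intensity ran from 1487 to 2183 (median 1652) in high-dosed animals, against 2433, 2997 and 2683 in controls. The highest of the high-dosed animals was again animal 2, and no high-dosed animal reached the lowest control. The log2 fold change was -0.66 ± 0.10 (adjusted p = 0.00225), a level 0.634 times that of controls. Hspa13 (STCH), an Hsp70-like ATPase attached to microsomes, ran from 641 to 899 (median 784) in high-dosed animals and stood at 1159, 1109 and 1160 in controls. That put its 3 controls close together and well above all 8 high-dosed animals, with a log2 fold change of -0.51 ± 0.091 (adjusted p = 0.00549). Manf, a secreted and ER-resident protein induced by ER stress, ran from 4877 to 6534 (median 5341) in high-dosed animals, against 6052, 7074 and 6338 in controls. High-dosed animal 2 was the only one of its group above control 1 and lay above control 9 as well. The log2 fold change of Manf was -0.26 ± 0.074 (adjusted p = 0.0457). The call was lost without any single animal other than high-dosed animal 2, with log2 fold changes from -0.30 to -0.19 and adjusted p up to 0.194.

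**Figure D2:**
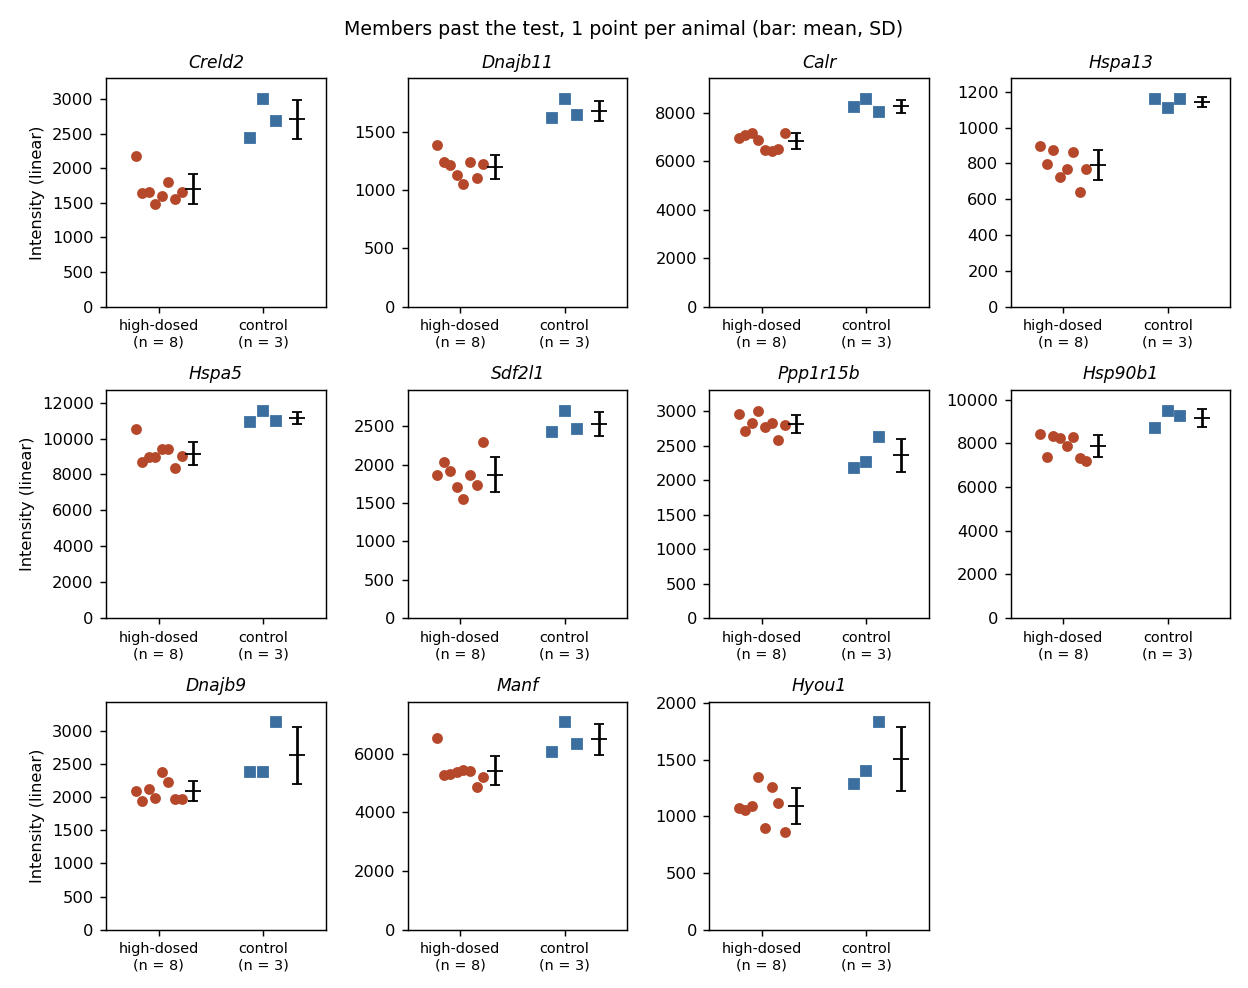
Intensity on a linear scale from 0 for each animal, in the 11 members that passed the test, with high-dosed animals as circles and controls as squares (bar: mean ± SD, n = 8 and n = 3). The groups do not overlap for 8 of the 10 lower genes; Hyou1, Manf and the higher gene Ppp1r15b overlap.

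Among the lectin chaperones and the ER's HSP90, Calr and Hsp90b1 were called lower and Canx was not. Calr, the soluble lectin chaperone and calcium store of the ER, ran from 6423 to 7157 (median 6936) in high-dosed animals, against 8239, 8565 and 8033 in controls. The groups lay far apart relative to their spread, and the log2 fold change was -0.28 ± 0.046 (adjusted p = 0.00391). Its membrane-bound relative Canx had a log2 fold change of -0.099 with a 95% interval from -0.21 to 0.012 (adjusted p = 0.258), with 7 of 8 high-dosed animals below all controls. Hsp90b1 (GRP94), the HSP90 of the ER, ran from 7208 to 8419 (median 8065) in high-dosed animals, against 8707, 9497 and 9256 in controls. It did not overlap, and its log2 fold change of -0.22 ± 0.057 (adjusted p = 0.0327) was the smallest of the 10. The call of Hsp90b1 was lost without control 1, 2 or 9 (adjusted p = 0.0668, 0.122 and 0.0931) and without high-dosed animal 3 (adjusted p = 0.0523).

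None of the protein disulfide isomerases passed, although all were bright. P4hb, the archetypal isomerase, had 11017 to 12014 (median 11451) in high-dosed animals and 11668, 11496 and 11408 in controls. The controls lay inside the range of the high-dosed animals, and the 95% interval of its log2 fold change was -0.076 to 0.068. Pdia3 (ERp57), which works with calnexin and calreticulin, had -0.023 with an interval of -0.11 to 0.063 for its brightest probe set. A dimmer Pdia3 probe set was lower in every high-dosed animal than in any control (579 to 802 against 915, 864 and 829; -0.29 ± 0.10, adjusted p = 0.108 over probe sets). Pdia4 (-0.16, interval -0.34 to 0.032) and Pdia6 (-0.10, interval -0.22 to 0.016) were not called either, and these intervals include changes as large as that of Hsp90b1. The ER oxidases that recharge these enzymes gave -0.063 for Ero1a and 0.037 for Ero1b, with intervals of -0.22 to 0.098 and -0.27 to 0.34.

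The 7 genes of ER-associated degradation, many of which are also ATF6 or XBP1 targets, did not pass in either direction (1 lower at an unadjusted p under 0.05, Vcp, where 7.29% of all genes were lower and 18.0% higher), and 4 of them had a log2 fold change above 0. Herpud1, which organises the ubiquitin ligase complex at the ER membrane, ran from 4552 to 7040 (median 5816) in high-dosed animals, against 5063, 5424 and 5916 in controls. The controls lay inside the high-dosed range (0.061, interval -0.18 to 0.31). Syvn1 (HRD1), the ligase itself, had 0.11, its partner Sel1l -0.022 and the mannosidase-like Edem1 -0.045. Derl1, a component of the retrotranslocation channel, had 0.041, with 1 of its 3 probe sets of opposite sign. Its relative Derl2 had 0.17 (adjusted p = 0.274) by the brightest probe set and 0.37 ± 0.097 by a dimmer one, which was called over probe sets (adjusted p = 0.0400), where 4.63% of probe sets were higher and 2.29% lower. Vcp, the ATPase that pulls clients out of the membrane, had -0.18 ± 0.060 with 7 of 8 high-dosed animals below all controls (adjusted p = 0.0766).

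The sensors and their transcription factors did not pass, nor did any at an unadjusted p under 0.05. Xbp1, of which the array measures total transcript and not the spliced form, ran from 4444 to 5820 (median 5299) in high-dosed animals, against 5474, 5320 and 6380 in controls (-0.13 ± 0.085, adjusted p = 0.380). Atf6 ran from 1318 to 2214 (median 1478) in high-dosed animals, against 1675, 1642 and 1759 in controls. Apart from high-dosed animal 2, which was the highest of all 11 animals, every high-dosed animal lay below every control for Atf6 (-0.14 ± 0.12, adjusted p = 0.522). Eif2ak3, which encodes PERK, ran from 677 to 847 (median 712) in high-dosed animals and varied more in controls, at 555, 714 and 886. Its log2 fold change was 0.034 with an interval of -0.20 to 0.27, and it was -0.13 without control 1. Activation of these sensors takes place by cleavage, splicing or phosphorylation, which transcript levels do not measure.

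In the ATF4 branch the levels in the groups overlapped for all 5 genes, and 0 of the 4 tested passed in limma, also at an unadjusted p under 0.05. Atf4 itself ran from 5450 to 6519 (median 6047) in high-dosed animals, against 5868, 6084 and 6461 in controls (-0.035, interval -0.16 to 0.094). Ddit3, which encodes the pro-apoptotic factor CHOP, was dim, with 247 to 379 (median 337) in high-dosed animals and 312, 351 and 457 in controls (-0.15, interval -0.41 to 0.11). Chac1, a glutathione-degrading enzyme and target of ATF4 and CHOP, had 239 to 355 (median 321) in high-dosed animals and 319, 367 and 274 in controls (-0.057, interval -0.32 to 0.20). For these 3 genes the high-dosed median stood within the controls' range.

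Trib3, a pseudokinase induced by ATF4 and CHOP, depended on the probe set. The brightest ran from 489 to 824 (median 639) in high-dosed animals, against 599, 483 and 631 in controls (0.16 ± 0.14, adjusted p = 0.522). Both dimmer probe sets were called as higher over probe sets, with 0.54 ± 0.14 and 0.70 ± 0.18 (adjusted p = 0.0341 and 0.0344), where 4.63% of probe sets were higher. The groups overlapped in both, with 7 and 6 of the 8 high-dosed animals above all controls. The first of the dimmer probe sets ran from 182 to 315 (median 248) in high-dosed animals, against 130, 137 and 206 in controls. Asns, the asparagine synthetase and a standard ATF4 target, was close to the floor of the array, with 85.8 to 152 (median 126) in high-dosed animals and 58.8, 98.1 and 58.5 in controls. Of the 8 high-dosed animals 7 lay above all controls. The log2 fold change of 0.50 has no test as reported, because the gene did not pass the filter on signal. In the setting without that filter 2 members were called higher, against 1 as reported. They were Ppp1r15b and Asns, since no other member gained a call there.

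Of the phosphatase subunits that reverse the PERK signal, 1 of 2 passed as higher, where 7.23% of all genes did. Ppp1r15b (CReP), the constitutive subunit, ran from 2582 to 3008 (median 2815) in high-dosed animals, against 2184, 2259 and 2634 in controls. It was higher in 7 of 8 high-dosed animals than in any control (0.25 ± 0.064, adjusted p = 0.0282). Without control 1 or 2 the call was lost (0.20 and 0.22, adjusted p = 0.176 and 0.104). Ppp1r15a (GADD34), the stress-induced subunit, ran from 409 to 698 (median 581) in high-dosed animals, against 648, 576 and 677 in controls (-0.20 ± 0.16, adjusted p = 0.473). Its 3 lowest values were those of high-dosed animals 8, 10 and 11, at 425, 409 and 412, below all other animals, whereas high-dosed animals 2 to 6 had 546, 653, 617, 663 and 698.

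The 3 translocon genes all had a log2 fold change below 0 and none passed (2 at an unadjusted p under 0.05, Ssr1 and Sec61a1). Among all genes 46.1% had a log2 fold change below 0 and 7.29% were lower at an unadjusted p under 0.05. Ssr1, of the complex that aids signal sequences into the channel, ran from 1729 to 2140 (median 2066) in high-dosed animals, against 2670, 2276 and 2170 in controls. The groups did not overlap (3.37% of all genes lay below controls in this way), but high-dosed animal 8 came close to control 9 (-0.21 ± 0.076, adjusted p = 0.102). Sec61a1, the channel's pore subunit, had -0.15 (interval -0.29 to -0.017, adjusted p = 0.146) and the small subunit Sec61b -0.019.

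Averaged over its 16 genes, the chaperone list was below all controls in each high-dosed animal. This score, the mean log2 signal relative to the 11 arrays, was -0.072 ± 0.057 (SD, n = 8) in high-dosed animals, with the highest at 0.021 in animal 2, against 0.12, 0.23 and 0.23 in controls. The translocon score also did not overlap, at -0.10 to 0.037 in high-dosed animals and 0.17, 0.063 and 0.044 in controls. The score of the 4 tested ATF4 branch genes was -0.0056 ± 0.099 (SD, n = 8) in high-dosed animals and 0.015 ± 0.067 (SD, n = 3) in controls, with high-dosed animal 10 lowest at -0.23. These scores are descriptive, since the members were chosen with earlier results of these data known.

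**Figure D3:**
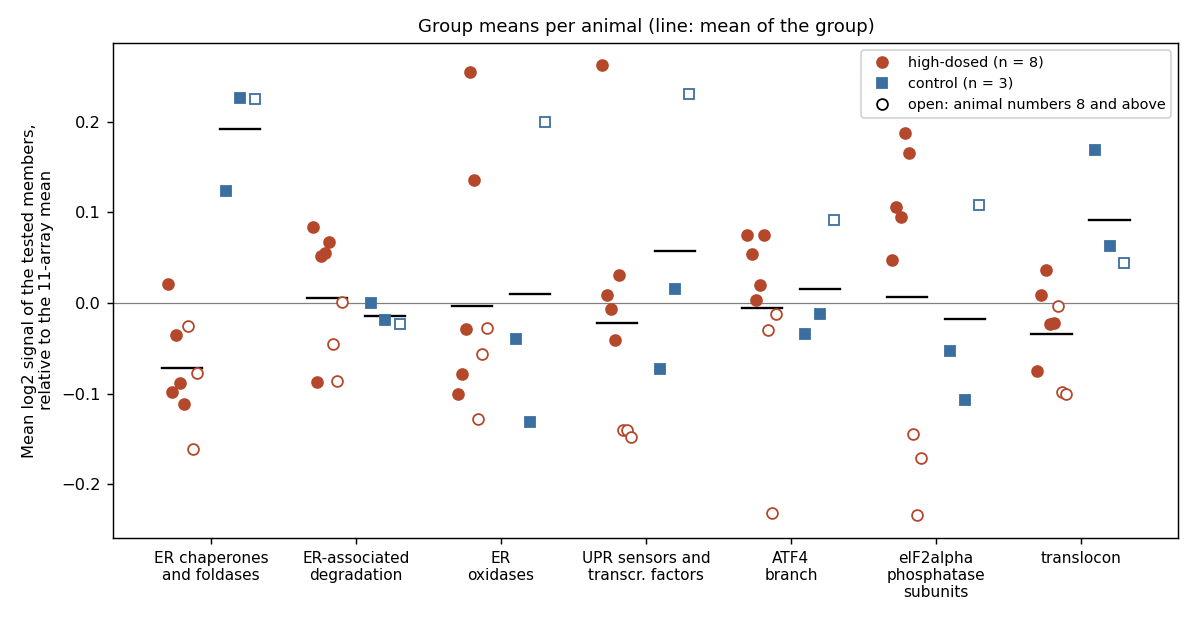
Mean log2 signal of the tested members of each list in each animal, relative to the 11-array mean, with high-dosed animals (circles) left of controls (squares); open symbols are animal numbers 8 and above, lines are group means. The chaperone list separates the groups, between 0.021 and 0.12, and the ATF4 branch does not.

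Arrays of high-dosed animals 8, 10 and 11 had the lowest median intensities, 149 to 153 against up to 187. The chaperone score of high-dosed animals 8, 10 and 11 was -0.025, -0.16 and -0.077, and that of high-dosed animals 2 to 6 ran from -0.11 to 0.021. With high-dosed animals 8, 10 and 11 left out, 6 chaperones were called lower, among 195 lower genes in all, and the list's median was -0.24. A block term separating animals numbered 8 or more from those numbered 6 or less left the same 10 called, among 424 lower genes in all. Single animals did change the count: 5 were called without control 1, 6 without control 2, 6 without control 9 and 6 without high-dosed animal 3. The number of lower genes in all fell too, from 279 as reported to 75, 134, 242 and 234 in these settings. Creld2, Dnajb11, Calr, Hspa13 and Hspa5 kept their calls when any 1 animal was left out, with a highest adjusted p of 0.0453, for Hspa5. With each array centred on its median over all probe sets, the median of the chaperone list was -0.23. In that setting 3 chaperones were called (Creld2, Dnajb11 and Hspa13), among 139 lower genes in all. The other 7 then had an adjusted p from 0.0537 for Calr to 0.155 for Hsp90b1, and Ppp1r15b had 0.0577. Within animal numbers 6 and below (5 high-dosed animals and 2 controls) Hspa5 was not called either, at -0.27 (adjusted p = 0.0670). Each of the 10 kept a negative log2 fold change in all 26 other settings that kept at least 2 controls.

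**Figure D4:**
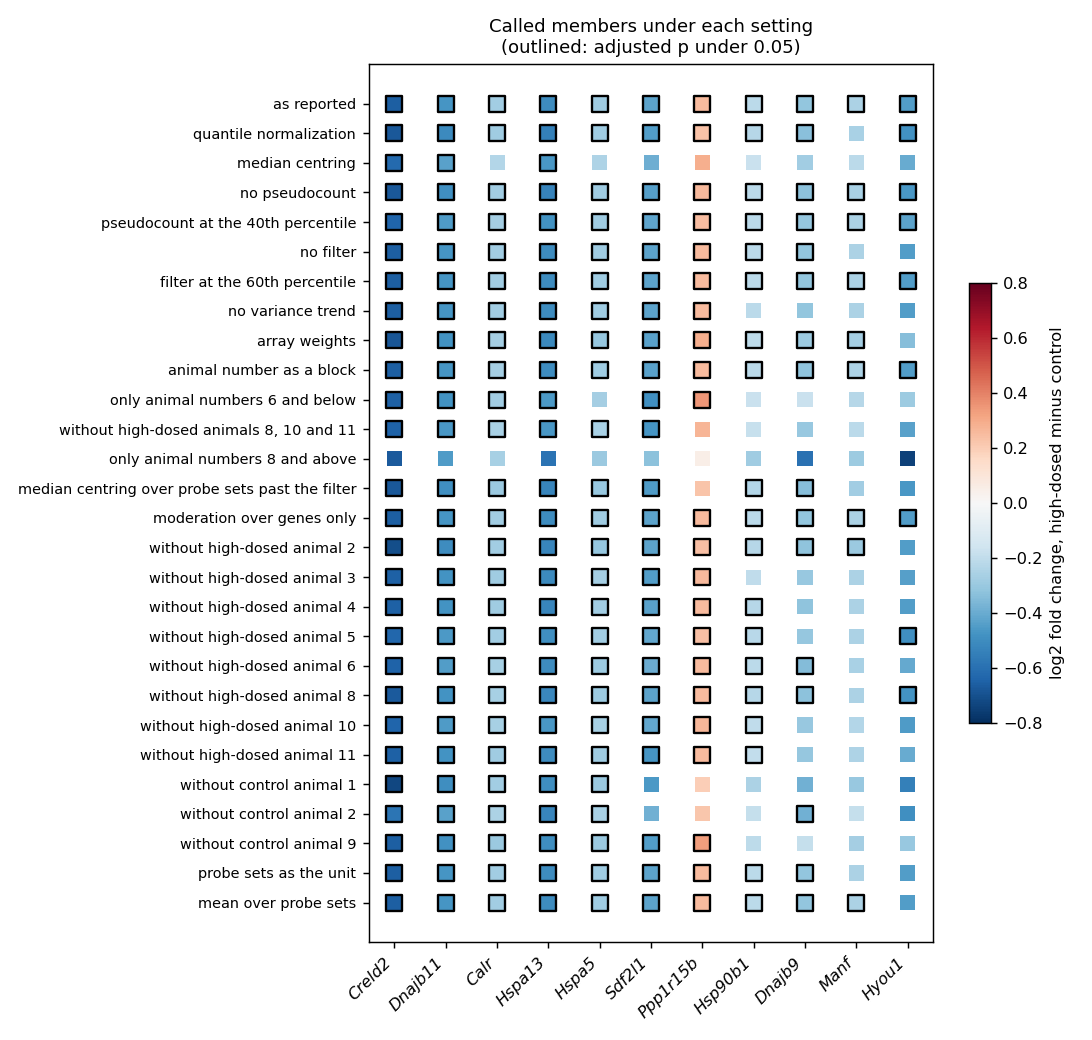
Log2 fold change (colour, high-dosed minus control) of the 11 called members in each setting, with an outline where the adjusted p was below 0.05. The colours stay blue for the 10 chaperones and red for Ppp1r15b throughout, whereas the outlines of Manf and Hyou1 are missing in most settings.

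Other genes of the pathway, listed by function, gave medians from -0.068 to 0.061. Of 37 tested ER folding enzymes and cochaperones outside the members, none was lower and 1 was higher (2 lower and 6 higher at an unadjusted p under 0.05), the thioredoxin-like Tmx4 (0.36 ± 0.084, adjusted p = 0.0196, 0.132 without control 1). The list's median was -0.037. Of 31 further genes of ER-associated degradation, 2 were lower and 1 higher (5 and 3 at an unadjusted p under 0.05, median 0.028). In limma 2.7% of the folding list and 9.68% of the degradation list were called, against 9.84% of all genes (2.60% lower and 7.23% higher). At an unadjusted p under 0.05, 7.29% of all genes were lower and 18.0% higher. Ubxn4, which recruits the Vcp ATPase to the ER, ran from 3854 to 4187 (median 4048) in high-dosed animals, against 4975, 4658 and 4749 in controls, without overlap (-0.25 ± 0.044, adjusted p = 0.00530). Insig1, the sterol-regulated anchor of SREBP processing, was lower (-0.39 ± 0.11, adjusted p = 0.0443) and Edem2 higher (0.24 ± 0.071, adjusted p = 0.0467). The call of Insig1 was lost without control 1 or 9 or any of 5 high-dosed animals (adjusted p up to 0.215), and that of Edem2 without any single control or any of 6 high-dosed animals (adjusted p up to 0.139).

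Of 33 tested genes of translocation, signal peptidase and oligosaccharyl transferase 1 was lower and 1 higher (5 and 2 at an unadjusted p under 0.05, median -0.056). Ssr2, a partner of Ssr1, was lower (-0.25 ± 0.062, adjusted p = 0.0260), a call lost without control 1 or 2 (adjusted p = 0.164 and 0.0551). Tusc3, an oxidoreductase subunit of oligosaccharyl transferase, was higher but dim, with 210 to 333 (median 268) in high-dosed animals and 104, 172 and 142 in controls (0.76 ± 0.12, adjusted p = 0.00282). Of 34 tested genes of ER to Golgi transport 3 were lower and 1 higher (median -0.068), where 2.60% of all genes were lower and 7.23% higher. At an unadjusted p under 0.05 the transport list had 11 lower and 1 higher, against 7.29% and 18.0% of all genes. The cargo receptor Surf4 had 3823 to 4286 (median 4097) in high-dosed animals, against 5221, 4999 and 4969 in controls, without overlap (-0.31 ± 0.050, adjusted p = 0.00340). The p24 proteins Tmed9 and Tmed7, which sort cargo into vesicles, had -0.22 ± 0.038 and -0.20 ± 0.052 (adjusted p = 0.00453 and 0.0328), the second lost without control 1 or 9 or high-dosed animal 5, 10 or 11 (adjusted p up to 0.159). The Golgi tether Golgb1 was higher (0.51 ± 0.075, adjusted p = 0.00190). Of 25 other regulators of the response, among them Creb3l3 and the site proteases, none was called (4 higher and 1 lower at an unadjusted p under 0.05, median 0.061).

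**Figure D5:**
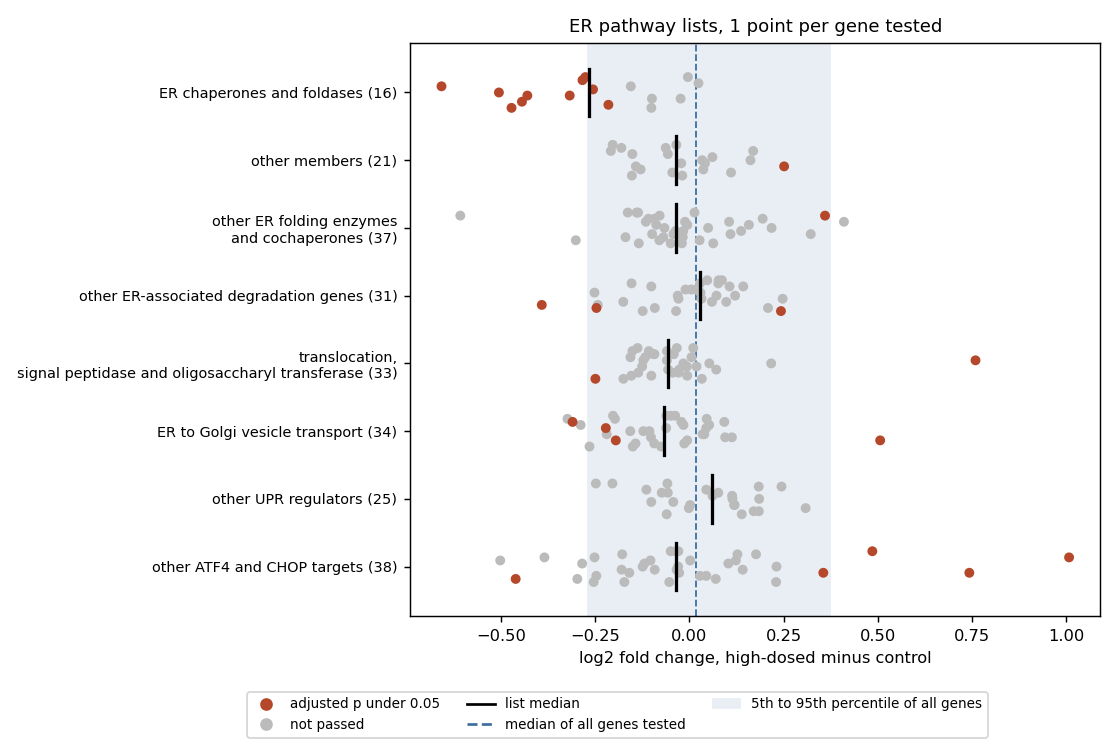
Log2 fold change (high-dosed minus control) of each gene tested, by list, with the list's median as a black line, the median of all genes tested as a dashed line and their 5th to 95th percentiles shaded. The chaperone list's median lies at -0.27, that of the other tested members pooled at -0.035, and those of the 6 further lists drawn between -0.068 and 0.061.

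Beyond the 5 members of the ATF4 branch, 38 further targets of ATF4 or CHOP were tested, and 4 were higher and 1 was lower (4 and 9 at an unadjusted p under 0.05, median -0.035). Over all genes tested, 7.23% were higher and 2.60% lower in limma, or 18.0% and 7.29% at an unadjusted p under 0.05. Nupr1, a stress-induced chromatin protein, had 4760 to 6510 (median 6067) in high-dosed animals, against 3427, 3050 and 4138 in controls. The groups did not overlap and the log2 fold change was 0.74 ± 0.098 (adjusted p = 0.00109). Bcl2l11 (BIM), a BH3-only protein that CHOP can induce, had 297 to 648 (median 424) in high-dosed animals, against 255, 184 and 138 in controls (1.01 ± 0.18, adjusted p = 0.00482), again without overlap. Slc7a5, a transporter of large neutral amino acids, was higher (0.49 ± 0.11, adjusted p = 0.0162), as was Eif4ebp1, a translation repressor named after its value was seen (0.36 ± 0.082, adjusted p = 0.0182). Shmt2, the mitochondrial serine hydroxymethyltransferase, was lower (-0.46 ± 0.11, adjusted p = 0.0182). Without control 1 the calls of Slc7a5, Eif4ebp1 and Shmt2 were lost (adjusted p = 0.10, 0.0668 and 0.0996). That of Slc7a5 was also lost without control 9, that of Shmt2 without control 2 and that of Eif4ebp1 without control 2 or 9 (adjusted p from 0.0502 to 0.0755). These genes have other inputs besides ATF4 and CHOP, and the direction was not shared across the list.

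The tissue held the markers its label names. The summed intensity of 13 hepatocyte markers ran from 234924 to 249389 in high-dosed animals, against 239961, 240176 and 239248 in controls. Of these 13 markers 1 was called higher and 1 lower, and the brightest weigh most in such a sum. Markers of endothelial cells moved with the groups: 3 of 10 tested were higher and none lower. Over all genes tested, 7.23% were higher and 2.60% lower by the same rule. The summed intensity of the endothelial markers ran from 13282 to 14656 in high-dosed animals, against 11949, 12983 and 11626 in controls. Of 11 markers of Kupffer cells and macrophages 1 was higher, with sums from 32804 to 43557 in high-dosed animals and of 26898, 33013 and 34242 in controls. Of 3 tested cholangiocyte markers 1 was higher, with summed intensities over 6 markers of 1722 to 2526 in high-dosed animals and of 1535, 1524 and 1621 in controls, while Krt19, Krt7 and Cftr lay under the signal filter. Of 6 measured markers of plasma and B cells, which also use this folding machinery heavily, 5 lay under the filter. The part of these cell types in the chaperone result was not tested, and in whole tissue fewer cells of a type and less RNA per cell cannot be told apart.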

How the data were processed

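Liver RNA of 8 high-dosed and 3 control rats was measured on 1 array each. The deposited values were an intensity per probe set on a linear scale, for 31099 probe sets; MAS5 is named per the submitters' processing notes, with no version. The authors' scaling between arrays is not given in the sources used here, and array medians ran from 149 to 187.

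Values were used as log2(intensity + 55.26), the 20th percentile of all values. Control probe sets were dropped, as were those whose mean log2 signal fell below its 40th percentile (7.40), leaving 18625 probe sets, which were fitted in limma 3.58.1 (R 4.3.3) with an intensity trend, two-sided. Adjustment by Benjamini-Hochberg ran over 10714 genes, each by its brightest single-symbol probe set; fold changes of dim genes are understated on this scale. The fit was tested on simulated data.

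The members and lists were chosen with earlier results of these data known. All members are named, with up to 4 called genes from each further list by adjusted p, and Eif4ebp1 in addition. Alternatives covered scaling, pseudocount, filter, variance model, probe set choice, animal number and single animals left out. Labels do not say whether animals shared a cage or litter. The p-values set the group difference against the spread between these animals and treat the animals as independent, which could not be checked. Protein sequences were not used here.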

Additional observations from a re-analysis of the deposited data

Results flagged for a closer look

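Among the 8 high-dosed animals, 1 animal stood apart from the others (Dixon's test at the 95% level) in 8 of the 45 sets of member values and list scores examined. Chance gives about 1 in 20 for independent sets. These sets are not independent, since each score averages members that are also counted, so the excess cannot be judged from this. High-dosed animal 2 was involved in 5 of the 8 sets. It was high for Manf at a log2 signal of 12.69 (the next animal was at 12.43), for Atf6 at 11.15 (next 10.71) and for Eif2ak3 at 9.82 (next 9.66), and low for Ssr1 at 10.80 (next 11.03). Its score over the sensors and transcription factors was 0.262, against 0.030 in the next animal. High-dosed animal 10 was low for Derl2 at 11.76 (next 12.02), and its ATF4 branch score was -0.232 (next -0.030). High-dosed animal 5 was high for Ero1b at 11.53 (next 11.21). Without high-dosed animal 2 the chaperone list's median log2 fold change was -0.29 and 10 members were called lower, 9 of them among the 10 reported.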

How the results depend on the processing

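No paired analysis was possible because the groups share only 1 animal number. Over the 26 other settings with at least 2 controls the 37 tested members gave 962 values, of which 864 kept their direction and their side of the threshold, 66 lost a call, 4 gained one and 28 changed sign, none of them among the called members. As reported, 1054 genes and 10 lower members were called. Array weights gave 1674 genes; animal numbers 6 and below alone gave 564 genes, 5 lower members and a chaperone median of -0.204; without high-dosed animals 8, 10 and 11 the counts were 658 and 6. Median centring gave 810 genes and 3 lower members, and no variance trend gave 947 genes and 6 lower members. Added after the data were seen, animal numbers 8 and above alone gave 2 genes and 0 members in limma (14 lower at an unadjusted p under 0.05); its 1 control is assumed to vary like the high-dosed animals, so its lost calls say nothing about stability. Leaving out 1 animal gave 295 to 1361 genes and 5 to 10 lower members, the fewest without control 1. Calls split into 775 higher and 279 lower as reported, 564 and 317 after quantile normalization, 671 and 139 after median centring, and 463 and 256 when centred over probe sets past the filter, a setting added later, in which 8 members were lower. Members that had not been called changed sign in places. After quantile normalization Eif2ak3 was -0.0102. After median centring P4hb was 0.0349, Pdia3 0.0156, Sec61b 0.0200, Atf4 0.00426 and Sel1l 0.0173, and with array weights Sec61b was 0.00290. Within numbers 6 and below Sec61b was 0.0189, Xbp1 0.0400, Ppp1r15a 0.0472 and Ddit3 0.00650. Without high-dosed animals 8, 10 and 11 P4hb was 0.00488, Sec61b 0.0264, Sel1l 0.0216, Ppp1r15a 0.00200 and Chac1 0.0237. Within numbers 8 and above Herpud1 was -0.151, Dnajc3 -0.0599, Derl2 -0.0926, Ero1b -0.446, Sel1l 0.0896, Eif2ak3 -0.312 and Trib3 -0.182. With 1 animal left out the values ran from -0.0131 to 0.00500 for P4hb, -0.147 to 0.237 for Ero1b, -0.0329 to 0.00203 for Sec61b, -0.0104 to 0.0690 for Dnajc3, -0.113 to 0.0290 for Sel1l, -0.126 to 0.187 for Eif2ak3, -0.149 to 0.0316 for Chac1 and -0.0662 to 0.00262 for Atf4. The cause of these changes was not tested.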
